A study of Mus musculus with 24 samples.

Results

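Chemokine, formyl-peptide and anaphylatoxin receptors are the receptors by which leukocytes read where to go. The set described here held 9 genes, Fpr1, Fpr2, Ccr1, Ccr2, Ccrl2, Cx3cr1, Cxcr4, C5ar1 and C3ar1, which were taken by their symbols from the 55291 gene names that were counted in every library. They were measured in RNA from cultured mouse pulmonary fibroblasts of C57BL/6 background. Wild-type (WT) and TLR4-/- cultures were each given phosphate-buffered saline (PBS), recombinant mouse cold-inducible RNA-binding protein (rmCIRP, 1 μg/ml), recombinant mouse transforming growth factor β1 (rmTGF-β1, 2 ng/ml) or both agents for 24 hours, with 3 libraries for each of the 8 conditions. The mice were 4-8 weeks old, the cells of a group came from a pool of 3-4 lungs, and cultures at passages 3-6 were kept overnight in Opti-MEM, a low-serum medium, before treatment. CIRP released from cells is known as a ligand of TLR4, so the comparison asked what rmCIRP does to these cells, whether it needs TLR4, and how it combines with rmTGF-β1, the main profibrotic cytokine.

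All of these receptors are proteins with 7 membrane-spanning helices. Most signal through G proteins of the Gi class, which set off calcium release, phosphoinositide 3-kinase activity and cell movement. Formyl-peptide receptors read peptides of bacteria and mitochondria, anaphylatoxin receptors read fragments of complement C5 and C3, and chemokine receptors read chemokines secreted by other cells. In the lung they are best known from neutrophils, monocytes and macrophages, and Cxcr4 is also known from fibrocytes and other mesenchymal cells.

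Fibroblast markers were abundant in the cultures, and macrophage markers were present beside them. Which cells of the cultures held the receptor transcripts was not tested. The summed normalized count of 10 fibroblast markers (among them Col1a1, Dcn and Pdgfra) lay between 609677 and 832093 in the 24 libraries. A normalized count is the number of reads on a gene divided by a factor that puts the libraries on one depth, which was 29853346 to 39664606 reads on genes. The summed normalized count of 17 macrophage and general leukocyte markers was 81972 to 104927 in the 12 WT libraries and 355017 to 456385 in the 12 libraries labelled TLR4-/-, and 71.0 to 77.4% of it in WT was Lyz2. Each of the 17 was detected in all 24 libraries, the lowest being Aif1, while the 8 lymphocyte markers summed to 2.78 to 20.3 and the neutrophil marker S100a9 was 0 in all 24 libraries. In RNA of whole cultures, more cells of a type and more RNA per cell cannot be told apart. The Tlr4 mRNA was not lower in the libraries labelled TLR4-/- (702 to 941) than in WT (630 to 802), so the counts on this gene do not check the label. With PBS alone Tlr4 passed as higher in the libraries labelled TLR4-/- (edgeR, adjusted p under 0.1), as did 23.2% of genes. Xist, which female cells transcribe, had raw counts of 0 to 3 in WT and 4403 to 6201 in the libraries labelled TLR4-/-. The genotype, this difference and the pool of lungs cannot be told apart. The labels do not state that the 3 libraries of a condition came from separate cultures, so p-values measure only the spread between these libraries. Library 3 of those labelled TLR4-/- with both agents stood apart from its replicates, with the highest neutrophil sum (502) and endothelial sum (1451) and the lowest fibroblast sum of all libraries. Its chi-square per degree of freedom over genes, a measure of difference between 2 replicates, was 47.8 and 32.9. For library 3 of those labelled TLR4-/- with rmTGF-β1 it was 12.5 and 16.3, and no other pair of replicates exceeded 7.33.

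Receptor levels were compared within a condition, as the mean normalized count of its 3 libraries per kilobase of exon. In WT cultures with PBS, C5ar1 was highest at 509.7 ± 30.3 normalized counts per kb (SD, n = 3), before Fpr1 at 377 ± 46.7 and C3ar1 at 277 ± 22.9. Cxcr4 (116 ± 9.73) and Ccr1 (111 ± 6.805) followed and did not differ beyond their spread. Fpr2 was at 56.0, Cx3cr1 at 18.3, Ccrl2 at 9.77 and Ccr2 at 0.503 normalized counts per kb. With rmCIRP the order in WT changed. Fpr1 then led at 1127 ± 65.1 per kb, C5ar1 came next at 424 ± 36.3, and Fpr2 (274 ± 31.6) and Ccrl2 (251 ± 47.2) stood above C3ar1 (172 ± 4.74), with Fpr2 and Ccrl2 within their spread of each other. In the libraries labelled TLR4-/- with PBS, C5ar1 (2534 per kb) and C3ar1 (1086 per kb) led, and Fpr1 (538), Ccr1 (416), Cxcr4 (213 ± 7.32) and Cx3cr1 (192 ± 8.89) followed.

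**Figure D1:**
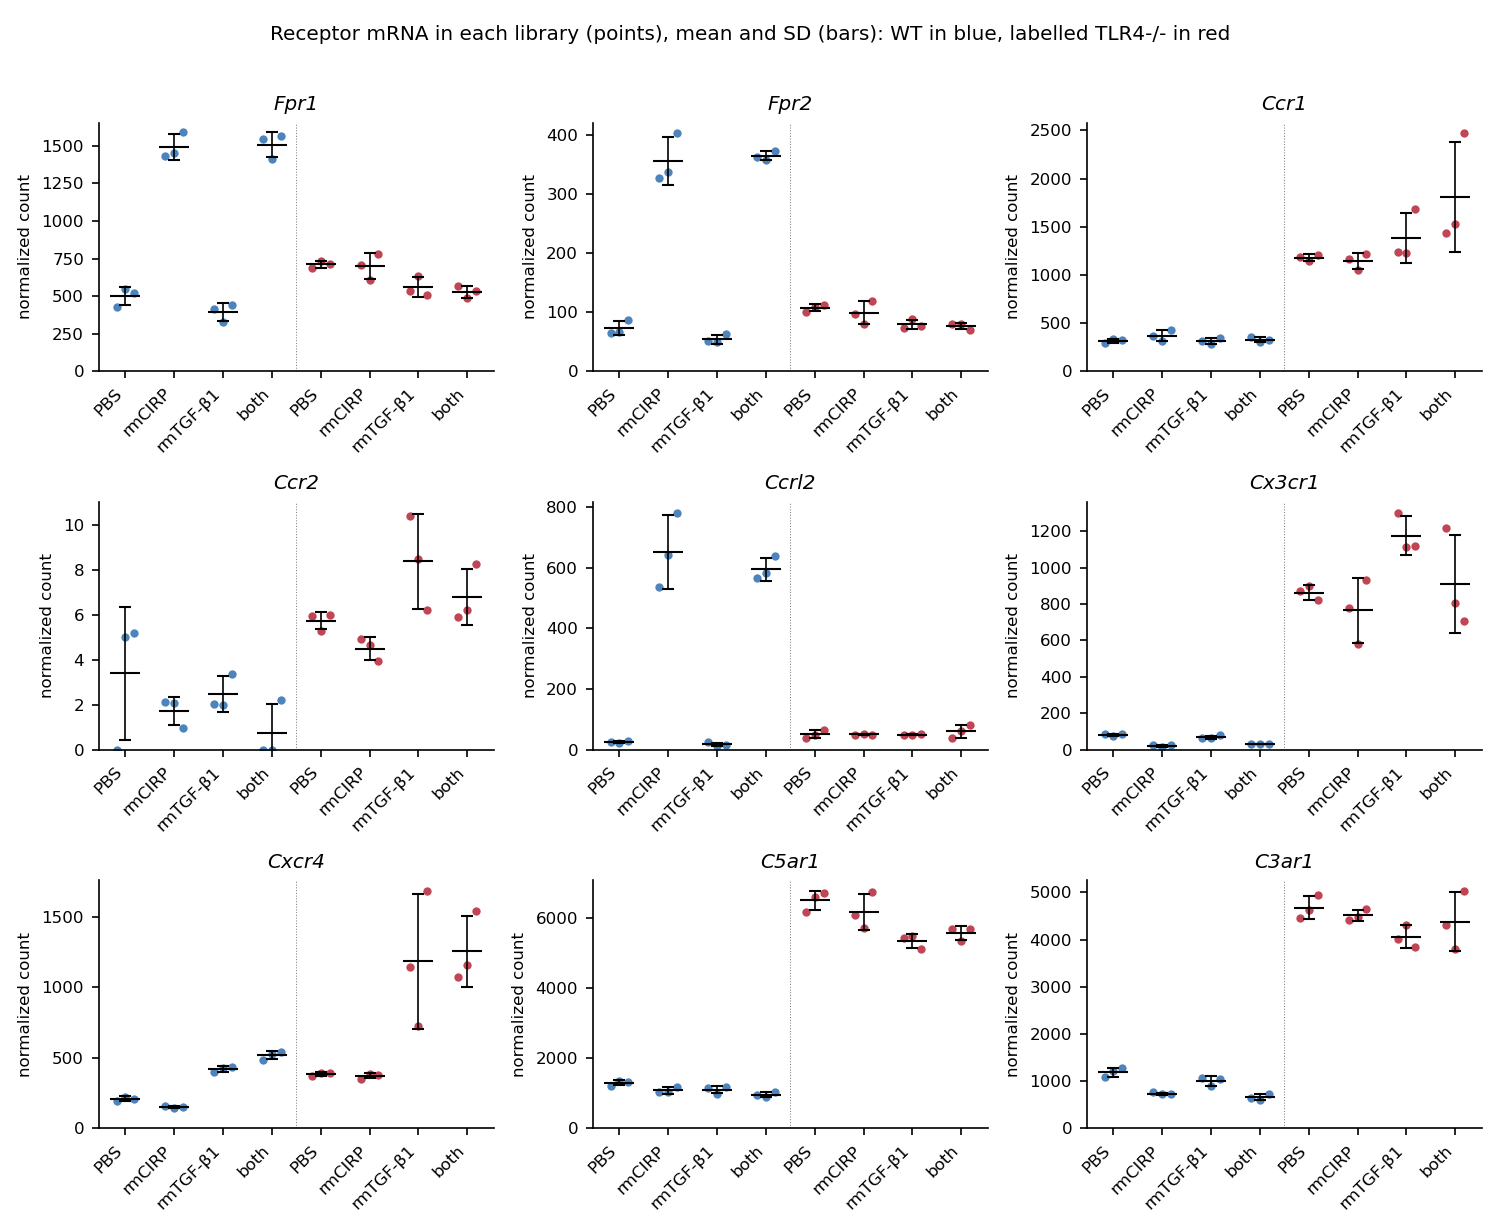
Normalized count (linear vertical axes from 0) of each of the 9 receptors in the 24 libraries, by treatment, with WT in blue and libraries labelled TLR4-/- in red; points are libraries and bars the mean and SD of 3. Fpr1, Fpr2 and Ccrl2 stood high in the 6 WT libraries that had rmCIRP. Ccr1, Cx3cr1, C5ar1 and C3ar1 stood higher in all 12 libraries labelled TLR4-/- than in all 12 of WT at equal depth over all genes. The share of all genes that did so was not counted. For Ccr1 and C3ar1 with PBS the direction turns when libraries are scaled to macrophage markers without Lyz2.

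The sequences just before the start sites of the 3 receptors that rose with rmCIRP in WT, and of Cx3cr1, which fell most, are shown so that the DNA beside each response can be seen. They are the 250 bases before the first RefSeq start site on GRCm38.p6, each read 5′ to 3′ on the strand of the gene. Ccrl2 lies at chr9:111057519-111057768 (minus strand), Fpr1 at chr17:17883940-17884189 (minus), Fpr2 at chr17:17887574-17887823 (plus) and Cx3cr1 at chr9:120068297-120068546 (minus). Capitals mark matches to 4 motifs searched on both strands.
Ccrl2: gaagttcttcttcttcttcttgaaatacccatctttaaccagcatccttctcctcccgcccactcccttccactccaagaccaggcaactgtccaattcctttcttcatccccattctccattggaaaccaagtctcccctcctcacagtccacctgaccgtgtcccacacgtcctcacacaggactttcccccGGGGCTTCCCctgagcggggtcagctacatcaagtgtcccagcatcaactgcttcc
Fpr1: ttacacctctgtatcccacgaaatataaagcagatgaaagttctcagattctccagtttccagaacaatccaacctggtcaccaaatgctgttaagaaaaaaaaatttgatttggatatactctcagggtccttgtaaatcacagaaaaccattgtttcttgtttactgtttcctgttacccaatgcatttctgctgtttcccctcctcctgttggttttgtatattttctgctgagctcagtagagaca
Fpr2: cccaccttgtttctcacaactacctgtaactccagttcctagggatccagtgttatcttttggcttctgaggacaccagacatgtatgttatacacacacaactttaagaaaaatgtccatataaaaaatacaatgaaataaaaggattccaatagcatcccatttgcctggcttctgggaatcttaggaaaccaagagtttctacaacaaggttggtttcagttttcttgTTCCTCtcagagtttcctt
Cx3cr1: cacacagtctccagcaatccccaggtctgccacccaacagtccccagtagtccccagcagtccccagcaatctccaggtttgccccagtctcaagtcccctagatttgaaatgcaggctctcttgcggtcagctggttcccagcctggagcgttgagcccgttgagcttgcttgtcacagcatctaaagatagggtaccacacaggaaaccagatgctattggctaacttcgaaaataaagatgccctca
In Ccrl2 the capitals are GGGGCTTCCC, 56 to 47 bases before the first start site, a match to the κB consensus that NF-κB proteins bind. RefSeq lists 3 start sites for Ccrl2, and the windows of sites 2 and 3 held no match to any of the 4 motifs. A κB match was in 3.9% of 32841 mouse promoters of this length and, counting first start sites, in 1 of the 9 receptors. In Fpr2 the capitals are TTCCTC, 19 to 14 bases before the start, which is the PU.1 core GAGGAA on the other strand. That core was in 23.3% of promoters and also in Ccr1. The AP-1 core TGANTCA was in 6.75% of promoters and among the receptors in C3ar1, and the core of the interferon-stimulated response element was in 2.98% and in 0 of the 9. None of the motifs overlapped in these windows. A match is a description of letters and was not tested for binding. Fpr1 and Fpr2 lie on chromosome 17, Ccr1, Ccr2, Ccrl2 and Cx3cr1 on chromosome 9, Cxcr4 on 1, C5ar1 on 7 and C3ar1 on 6.

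Both formyl-peptide receptors rose with rmCIRP in WT fibroblast cultures. Fpr1, the high-affinity receptor for formylated peptides, had normalized counts of 430.2, 549 and 519 with PBS and of 1430.4, 1455 and 1590.5 with rmCIRP. Every rmCIRP library stood above every PBS library, a 2.98-fold rise (log2 1.57, SE 0.10, adjusted p = 3.63e-11, edgeR's quasi-likelihood test, Benjamini-Hochberg adjustment over all genes tested, as for each adjusted p that follows). Fpr2, which takes many ligands including serum amyloid A, cathelicidin and annexin A1 peptides, went from 64.5, 66.9 and 86.4 to 327, 336 and 402. Its libraries also did not overlap, and it rose 4.88-fold (log2 2.29, SE 0.13, adjusted p = 2.18e-12). Fpr2 shares 48 exonic bases with Fpr3 on the same strand, and reads there cannot be assigned to one of them. Beside the rise of the Fpr genes, the sum of 8 neutrophil markers went from 150.1 to 181 with PBS to 399 to 432 with rmCIRP, through S100a8 and Csf3r, with Ly6g at no more than 2.06 and S100a9, Ngp and Retnlg at 0 in the same libraries. The part of these transcripts in the rise was not tested.

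Ccrl2 had the largest change with rmCIRP of the 8 receptors tested in WT. It is an atypical receptor that holds the chemoattractant chemerin at the cell surface without known G protein signalling. Its normalized counts were 24.1, 22.96 and 29.1 with PBS and 535, 643 and 779 with rmCIRP. The groups lay far apart, and the rise was 25.6-fold (log2 4.68, SE 0.20, adjusted p = 2.69e-14). Of the 8 receptors tested, 6 passed the threshold of adjusted p under 0.1 in this comparison, where 43.9% of the 16258 genes tested passed. The 3 that rose stood against 19.8% of genes higher, and the 3 that fell against 24.1% lower.

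Cx3cr1, C3ar1 and C5ar1 fell with rmCIRP in WT. Cx3cr1, the fractalkine receptor of monocytes and resident macrophages, went from 84.7, 75.9 and 87.4 to 24.4, 16.5 and 23.7, which was 3.84-fold lower (log2 -1.94, SE 0.35, adjusted p = 0.000127). C3ar1, the receptor of the complement fragment C3a, went from 1082, 1221 and 1272 to 763, 729 and 726 and was 1.62-fold lower (log2 -0.69, SE 0.09, adjusted p = 3.36e-06). Neither gene overlapped between PBS and rmCIRP. C5ar1, the signalling receptor of C5a, fell less, from 1221, 1367 and 1342 to 1031, 1038 and 1196, without overlap (log2 -0.27, SE 0.07, adjusted p = 0.00531). Cx3cr1 shares 78 exonic bases with Gm33858 on the opposite strand, and the strand setting of the counting is not given in the sources used here.

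The other chemokine receptors did not pass edgeR's main test with rmCIRP in WT, though some alternative fits called Cxcr4 and Ccr1. Cxcr4, the receptor of Cxcl12, was at 192, 227 and 211 with PBS and at 156, 146 and 155 with rmCIRP. All 3 rmCIRP libraries were lower, but the fitted change missed the threshold (log2 -0.47, SE 0.25, adjusted p = 0.149). Cxcr4 passed as lower in 5 of 14 alternative fits. Among them was DESeq2, with 7 receptors called beside 6530 of 17667 genes. Ccr1, which binds Ccl3, Ccl5 and related chemokines, was at 294, 330.5 and 322 against 362, 313 and 429, and the groups overlapped (log2 0.22, SE 0.19, adjusted p = 0.385). Ccr1 passed as higher in 3 of the 14 alternative fits. The count of receptors called was 8 with no filter (6372 of 34285 genes) and 8 on the compared libraries alone (7441 of 15157 genes). Ccr2, the monocyte receptor of Ccl2, had at most 11 reads in any of the 24 libraries and did not pass the filter on low counts. Its normalized counts were 0, 4.99 and 5.2 with PBS and 2.12, 2.06 and 0.988 with rmCIRP in WT, too few to compare. In this comparison 7 of the 8 receptors tested did not overlap between groups, against 50.8% of genes.

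The macrophage markers moved in both directions in the same libraries. Of the 17, 6 rose with rmCIRP in WT (Marco from 824, 1015 and 1023 to 3387, 3152 and 3328) and 10 fell (among them Csf1r, Mrc1 and C1qa). Over all genes 19.8% rose and 24.1% fell. The sum of the 17 went from 96304 to 104927 with PBS to 84830.1 to 89906 with rmCIRP. The mean sum was 0.861 times that with PBS, and 1.06 times without Lyz2. When each library was scaled to the marker sum, a change made after the data were seen, Fpr1, Fpr2, Ccrl2, Cx3cr1 and C3ar1 stayed past the threshold in the same direction. C5ar1 then did not pass (log2 -0.05, adjusted p = 0.627) and Ccr1 passed as higher (log2 0.44). Without Lyz2 in the sum C5ar1 passed as lower (log2 -0.36, adjusted p = 0.000474) and Ccr1 did not pass (log2 0.13, adjusted p = 0.499). Cxcr4 then passed as lower (log2 -0.55, adjusted p = 0.0258). Scaling to all 17 markers moved the median log2 change of all genes from -0.02 to 0.20, and scaling without Lyz2 moved it to -0.11.

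**Figure D2:**
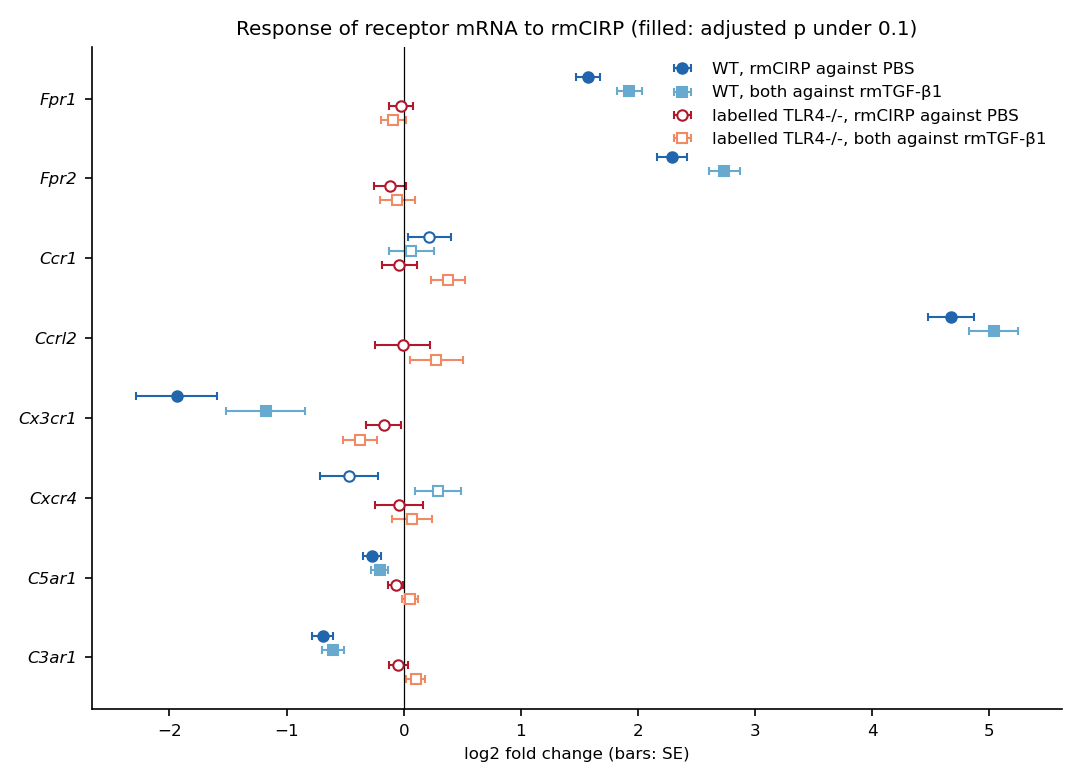
Log2 change with rmCIRP for the 8 receptors tested (horizontal axis, bars are the SE), against PBS and on top of rmTGF-β1, in WT and in libraries labelled TLR4-/-; filled points passed adjusted p under 0.1. Ccrl2, Fpr2 and Fpr1 lay at 1.57 or above in both WT series, and no filled point is seen in either series labelled TLR4-/-.

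In the presence of rmTGF-β1 the same WT receptors responded to rmCIRP. This comparison used the libraries with both agents and those with rmTGF-β1, none of which entered the comparison with PBS, although a common estimate of spread was used. Fpr1 was at 413, 328 and 443 with rmTGF-β1 and at 1546, 1416 and 1565 with both (log2 1.93, SE 0.10, adjusted p = 1.86e-12). Fpr2 went from 50.4, 49.0 and 62.5 to 363, 357 and 372 (log2 2.74, SE 0.13, adjusted p = 2.25e-13), and Ccrl2 from 24.2, 12.999 and 16.9 to 565, 583 and 638, a 32.8-fold rise (log2 5.04, SE 0.21, adjusted p = 2.01e-14). In all 3 genes each library with both agents exceeded each with rmTGF-β1 alone. The share of all genes without overlap was not counted for this comparison. Cx3cr1 fell from 63.5, 63.0 and 79.4 to 30.6, 29.0 and 32.1 (2.26-fold lower, adjusted p = 0.0086) and C3ar1 from 1073, 889 and 1054 to 648, 612 and 728 (1.52-fold lower, adjusted p = 2.83e-05). C5ar1 passed the threshold with a small change and with overlapping libraries, 1158, 994 and 1185 against 969.7, 906 and 1029 (log2 -0.21, SE 0.07, adjusted p = 0.0351). Thus 6 of 8 receptors passed, where 42.2% of genes did, 3 as higher (20.5% of genes) and 3 as lower (21.7%). Cxcr4 (log2 0.29, adjusted p = 0.265) and Ccr1 (log2 0.06, adjusted p = 0.83) did not.

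The test of whether the WT response to rmCIRP differed with and without rmTGF-β1 called 0 of the 8 receptors and 0.0492% of genes (8 genes). At an unadjusted p under 0.05 it held 3 receptors and 917 genes, and DESeq2 called 0 receptors and 37 genes. The differences nearest to the threshold were 0.76 (SE 0.32, adjusted p = 0.809) for Cxcr4, 0.35 (SE 0.15, adjusted p = 0.809) for Fpr1 and 0.45 (SE 0.19, adjusted p = 0.817) for Fpr2 on the log2 scale.

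No receptor passed the test with rmCIRP in the libraries labelled TLR4-/-. Fpr1 was at 689.6, 735 and 713 with PBS and at 705, 609.7 and 781 with rmCIRP (log2 -0.02, SE 0.10, adjusted p = 0.992). Fpr2 was at 101, 109 and 112 against 97.3, 79.8 and 119 (log2 -0.12, SE 0.14, adjusted p = 0.941), and Ccrl2 at 39.5, 49.8 and 64.7 against 50.1, 52.0 and 50.1 (log2 -0.01, SE 0.24, adjusted p = 0.996). All 3 genes overlapped between the groups. Cx3cr1 was at 869, 899.7 and 820.3 against 779.6, 580.0 and 934, also with overlap (log2 -0.17, SE 0.15, adjusted p = 0.898). The anaphylatoxin receptors, abundant in these libraries, likewise overlapped. C5ar1 was at 6193, 6613 and 6729.6 with PBS and at 6095, 5728 and 6746 with rmCIRP (log2 -0.07, SE 0.06, adjusted p = 0.918), and C3ar1 at 4463, 4628 and 4938 against 4407, 4474 and 4651 (log2 -0.05, SE 0.08, adjusted p = 0.969). Ccr1 (log2 -0.04, SE 0.15) and Cxcr4 (log2 -0.04, SE 0.20) were as near to 0, and Ccr2 was at 4.92, 4.64 and 3.93 with rmCIRP. edgeR's test called 0 of 8 receptors and 0 of 16258 genes (0% of genes), with 1136 genes and 0 receptors at an unadjusted p under 0.05. DESeq2 called 33 genes and 0 receptors, the fit without a count filter 149 genes, and the fit on the compared libraries alone 29, again with 0 receptors.

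The difference between the genotypes in the rmCIRP response was itself tested, and 5 of 8 receptors passed, where 31.4% of genes did, 3 as lower in the libraries labelled TLR4-/- (14.3% of genes) and 2 as higher (17.1%). The response of the libraries labelled TLR4-/- was lower than that of WT by a log2 difference of -4.69 for Ccrl2 (SE 0.33, adjusted p = 4.50e-10), -2.41 for Fpr2 (SE 0.19, adjusted p = 2.25e-09) and -1.60 for Fpr1 (SE 0.14, adjusted p = 2.53e-08). For Cx3cr1 the difference was 1.77 (SE 0.38, adjusted p = 0.00159) and for C3ar1 0.65 (SE 0.12, adjusted p = 0.000448), the fall being present in WT. The differences for C5ar1 (0.20, SE 0.10, adjusted p = 0.138), Cxcr4 (0.43, SE 0.32, adjusted p = 0.367) and Ccr1 (-0.26, SE 0.24, adjusted p = 0.477) did not pass. The starting levels with PBS also differed between the genotypes, as given next.

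With PBS alone, every receptor tested was higher in the libraries labelled TLR4-/- than in WT at equal depth over all genes, though 6 of the 8 turned lower when the libraries were scaled to macrophage markers without Lyz2. Cx3cr1 was at 869, 899.7 and 820.3 against 84.7, 75.9 and 87.4 in WT, 10.4-fold higher (log2 3.38, SE 0.19, adjusted p = 1.62e-12). The anaphylatoxin receptors followed. C5ar1 was at 6193, 6613 and 6729.6 against 1221, 1367 and 1342 (4.96-fold, adjusted p = 1.04e-16), and C3ar1 at 4463, 4628 and 4938 against 1082, 1221 and 1272 (3.92-fold, adjusted p = 1.35e-14). Ccr1 was at 1185, 1141 and 1209.5 against 294, 330.5 and 322, which was 3.73-fold higher (adjusted p = 4.04e-09). Over all 24 libraries these 4 receptors did not overlap between the genotypes, but the share of all genes that did so was not counted. For C5ar1 the WT range was 906 to 1367 and the other 5134 to 6746. The remaining receptors were less far apart. Ccrl2 was 2.02-fold (adjusted p = 0.00518), Cxcr4 1.83-fold (adjusted p = 0.0027), Fpr2 1.48-fold (adjusted p = 0.00313) and Fpr1 1.42-fold higher (adjusted p = 0.000491). All 8 passed as higher, where 23.2% of genes were higher and 47.1% passed in either direction, and none of the 8 overlapped between the groups, where 51.7% of genes did not overlap. Ccr2 was at 5.93, 5.3 and 5.97 against 0, 4.99 and 5.2, near the limit of counting.

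The macrophage markers were higher in the same libraries. Of the 17, 16 were higher and Marco lower in the libraries labelled TLR4-/- with PBS, where 23.2% of genes were higher and 24% lower. The median log2 difference of the 17 was 2.20. Their sum was 367559 to 421097 against 96304 to 104927, 3.85 times the WT mean (4.66 times without Lyz2). Scaled to the marker sum, Cx3cr1 (log2 1.44) and C5ar1 (0.37) passed as higher, and Fpr1 (-1.43), Fpr2 (-1.37), Cxcr4 (-1.07) and Ccrl2 (-0.93) passed as lower, while Ccr1 (-0.04) and C3ar1 (0.03) did not pass. Without Lyz2 in the sum, Cx3cr1 alone passed as higher (1.16), C5ar1 did not pass (0.09) and the other 6 passed as lower. This scaling moved the median log2 difference of all genes from -0.02 to -1.96, or to -2.24 without Lyz2, so the genes higher among those called went from 49.1% to 1.4% or 0.7%. The part of the macrophage transcripts in these differences was not tested.

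**Figure D3:**
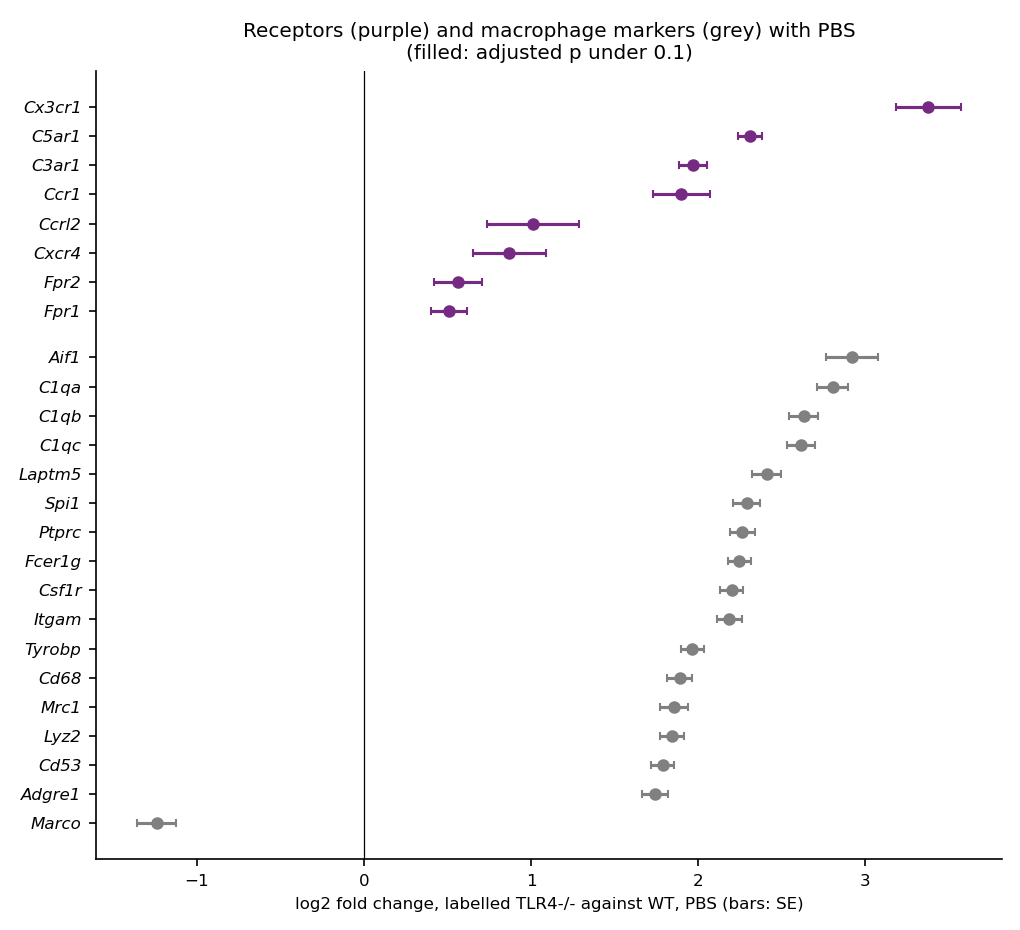
Log2 difference between libraries labelled TLR4-/- and WT with PBS (horizontal axis, bars are the SE) for the 8 receptors tested in purple and 17 macrophage and leukocyte markers in grey. All 8 receptors lay above 0, from 0.51 for Fpr1 to 3.38 for Cx3cr1, and 16 of the 17 markers did so too; scaled to these markers without Lyz2, 6 of the 8 receptors lay below 0.

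Among the responses to rmTGF-β1, Cxcr4 stood out in both genotypes. In WT it was at 399, 432 and 433 against 192, 227 and 211 with PBS, without overlap and 2.00-fold higher (log2 1.00, SE 0.21, adjusted p = 0.0047). In the libraries labelled TLR4-/- it was at 1147, 724 and 1683 against 369, 390.0 and 394, 3.11-fold higher (log2 1.64, SE 0.19, adjusted p = 2.28e-06). It also rose when rmTGF-β1 was added to rmCIRP. The values in WT were 486, 526 and 542 with both agents against 156, 146 and 155 with rmCIRP (log2 1.76, SE 0.22, adjusted p = 8.17e-06), and in the libraries labelled TLR4-/- 1072, 1156 and 1543 against 353, 386 and 378 (log2 1.75, SE 0.19, adjusted p = 1.83e-06). Cxcr4 passed as higher in all 4 comparisons of rmTGF-β1, of which those in one genotype use different libraries. The 3 libraries labelled TLR4-/- with rmTGF-β1 were spread over a range of 724 to 1683, which was wider than the whole range in WT.

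The other receptors changed little with rmTGF-β1 in WT. Fpr1 (log2 -0.34, SE 0.11, adjusted p = 0.0615), C5ar1 (-0.24, SE 0.07, adjusted p = 0.0427) and C3ar1 (-0.25, SE 0.09, adjusted p = 0.0941) passed as lower, so that 4 of 8 passed where 12.4% of genes did (5.77% higher and 6.65% lower). These 3 were lost without PBS library 2 or 3 or rmTGF-β1 library 2 (1453, 1253 and 1029 genes called), which left Cxcr4 alone. They were also lost with either macrophage marker scaling (without Lyz2, Fpr1 at a log2 of -0.20, adjusted p = 0.208, C5ar1 at -0.10, adjusted p = 0.428, and C3ar1 at -0.11, adjusted p = 0.393), and the marker sum with rmTGF-β1 in WT was 0.925 times that with PBS. Without rmTGF-β1 library 3 Fpr2 passed and C3ar1 did not. The libraries of Fpr1 overlapped. Fpr2 was lower in all 3 libraries but missed the threshold (log2 -0.42, SE 0.16, adjusted p = 0.117), as did Ccrl2 (-0.50, adjusted p = 0.43), Cx3cr1 (-0.26, adjusted p = 0.635) and Ccr1 (-0.02, adjusted p = 0.973). With rmTGF-β1 added to rmCIRP in WT, only Cxcr4 of the 8 passed, where 20.5% of genes did. Without WT library 3 with both agents, C5ar1 passed as well.

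Against PBS, rmTGF-β1 changed 6 of 8 receptors in the libraries labelled TLR4-/-, where 23.9% of genes passed (12.1% higher and 11.7% lower). Cx3cr1 rose from 869, 899.7 and 820.3 to 1298, 1112 and 1116, without overlap (log2 0.45, SE 0.14, adjusted p = 0.0326). Fpr1 fell from 689.6, 735 and 713 to 537, 637 and 509.6 (log2 -0.34, SE 0.10, adjusted p = 0.0266), and Fpr2 from 101, 109 and 112 to 72.9, 88.2 and 76.2 (log2 -0.44, SE 0.14, adjusted p = 0.0345). The anaphylatoxin receptors fell slightly, C5ar1 to 5438, 5495 and 5134 (log2 -0.28, SE 0.07, adjusted p = 0.00467) and C3ar1 to 4023, 4319 and 3848 (log2 -0.20, SE 0.08, adjusted p = 0.0958), both without overlap. How many of all genes did not overlap was not counted here. Ccr1 was at 1236, 1231 and 1684 (log2 0.24, SE 0.15, adjusted p = 0.30) and Ccrl2 at 50.2, 47.8 and 52.3 (log2 -0.03, adjusted p = 0.959), and neither passed. The count was 3 without PBS library 3 (beside 3127 genes called) or rmTGF-β1 library 1 (3026 genes), which left Fpr1, Cxcr4 and C5ar1. It was also 3 without rmTGF-β1 library 3 (2517 genes), which left Cx3cr1, Cxcr4 and C5ar1. The macrophage marker sum with rmTGF-β1 was 1.01 times that with PBS in these libraries. The test of whether the rmTGF-β1 response differed between the genotypes called 0 of 8 receptors and 0.0861% of genes (14 genes), with 2 receptors and 1686 genes at an unadjusted p under 0.05, and DESeq2 called 0 receptors and 163 genes. Cx3cr1 (0.71, SE 0.30, adjusted p = 0.408) and Cxcr4 (0.63, SE 0.29, adjusted p = 0.445) had the lowest p.

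**Figure D4:**
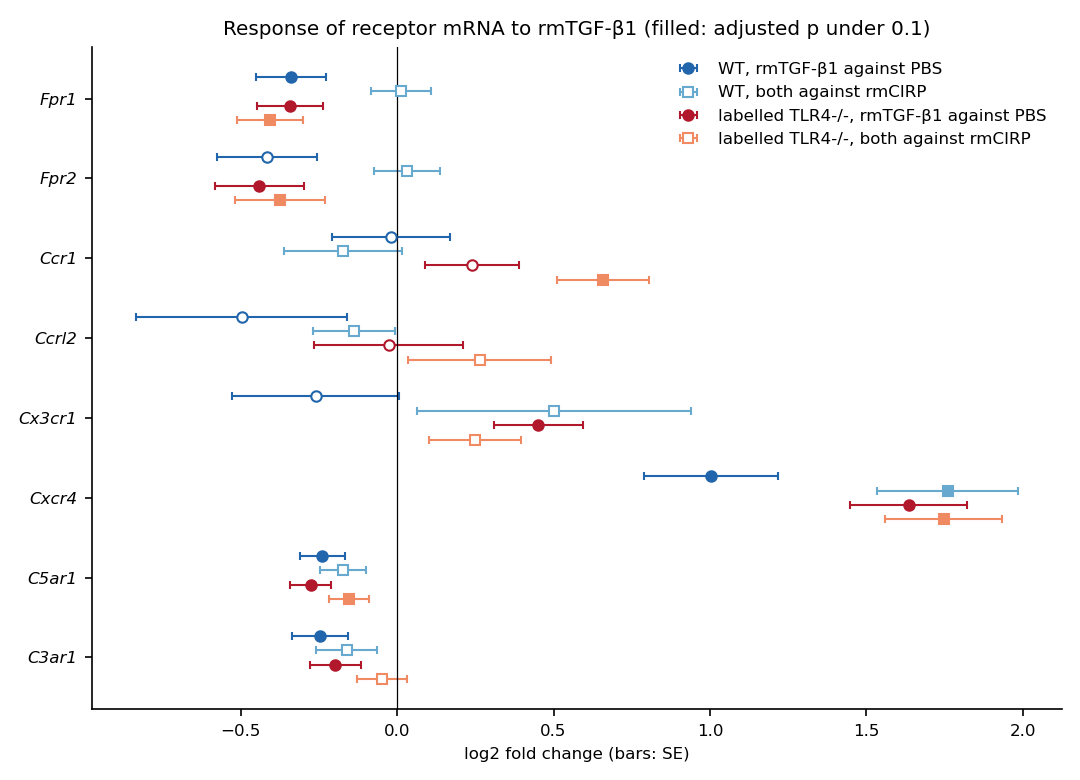
Log2 change with rmTGF-β1 for the 8 receptors tested (horizontal axis, bars are the SE), against PBS and on top of rmCIRP, in WT and in libraries labelled TLR4-/-; filled points passed adjusted p under 0.1. Cxcr4 lay between 1.00 and 1.76 in the 4 series, and the other filled points were nearer to 0.

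With both agents in the libraries labelled TLR4-/-, Ccr1 was at 1436, 1532 and 2469 against 1162, 1051 and 1217 with rmCIRP alone. The groups did not overlap, and Ccr1 rose 1.58-fold (log2 0.66, SE 0.15, adjusted p = 0.00249), the library at 2469 being the one that stood apart. Without that library Ccr1 still passed. Over all fits that left out 1 library, the log2 change of Ccr1 ran from 0.37 to 0.80. In that comparison 5 of 8 receptors passed, Cxcr4, Ccr1, Fpr1 (log2 -0.41, adjusted p = 0.00678), Fpr2 (-0.37, adjusted p = 0.0584) and C5ar1 (-0.15, adjusted p = 0.0876), where 32.8% of genes did (17.2% higher and 15.6% lower). Without rmCIRP library 1 the count was 3 (beside 4431 genes called). Without the library that stood apart it was 4 (3802 genes), Fpr1, Ccr1, Cx3cr1 and Cxcr4. Against rmTGF-β1 alone, 0 of 8 receptors and 2.69% of genes (437 genes) passed. At an unadjusted p under 0.05 there were 2 receptors and 2912 genes, and DESeq2 called 0 receptors and 902 genes. Ccr1 (log2 0.38, adjusted p = 0.181) and Cx3cr1 (log2 -0.37, adjusted p = 0.177) came nearest. Without rmTGF-β1 library 3 Ccr1 and Cxcr4 passed, beside 2141 genes. Without library 1 with both agents Ccr1 and Cx3cr1 did, beside 2674 genes.

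The chemokines and other ligands of these receptors were followed with the receptors. Of 19 ligands listed 17 were tested, and with rmCIRP in WT 11 rose and 3 fell, where 19.8% of genes rose and 24.1% fell. Their median log2 change was 1.36 beside -0.02 over all genes. Ccl5, a ligand of Ccr1, went from 15.4, 11.98 and 9.37 to 3635, 3605 and 4275 (log2 8.26, SE 0.16, adjusted p = 3.66e-20). Ccl3, another Ccr1 ligand, went from 412, 447 and 469 to 11379.6, 11728 and 12705 (log2 4.75, adjusted p = 3.28e-17). Ccl4 rose from 207, 273 and 253 to 2602, 2547 and 2889 (log2 3.45, adjusted p = 7.3e-14). The Ccr2 ligand Ccl2 was already abundant and rose from 10283, 14368 and 13052 to 79081, 77002 and 78554 (log2 2.63, adjusted p = 1.04e-10), whereas Ccr2 itself stayed at a few reads. Cxcl12, the ligand of Cxcr4, fell from 29076, 31294 and 30932 to 25163, 23688 and 23557 (log2 -0.34, SE 0.08, adjusted p = 0.00243). The ligand of Cx3cr1, Cx3cl1, did not pass (log2 0.03, adjusted p = 0.9), and C3, the precursor of C3a, rose by a log2 of 0.49 (adjusted p = 0.000315).

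Among the libraries labelled TLR4-/-, 0 of the 17 ligands passed edgeR's test with rmCIRP (0 at an unadjusted p under 0.05 and 0 by DESeq2), with a median log2 change of -0.02. Over all genes that test called 0 of 16258. Ccl3 was at 903, 928 and 1004 with PBS and at 837, 1038 and 987 with rmCIRP, so the groups overlapped. The genotype difference in the rmCIRP response passed for 11 ligands, where 31.4% of genes passed. The response was lower in the libraries labelled TLR4-/- for 10 (Ccl5 -8.65, Ccl3 -4.73, Ccl4 -3.46, Ccl2 -2.67 on the log2 scale) and higher for Cxcl12 (0.37). With PBS, 8 ligands were higher in the libraries labelled TLR4-/- and 3 lower, where 23.2% of genes were higher and 24% lower. Ccl12 (log2 2.53) and Ccl9 (1.75) were among the 8 and Cxcl12 (-0.73) among the 3. These are differences at equal depth over all genes, and values scaled to the macrophage markers are not given for the ligands. With rmTGF-β1, Cx3cl1 rose in WT (log2 0.64) and in the libraries labelled TLR4-/- (log2 0.84). Ligands that fell with it were 4 in WT, where 6.65% of genes fell, and 8 in the other genotype, where 11.7% fell.

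**Figure D5:**
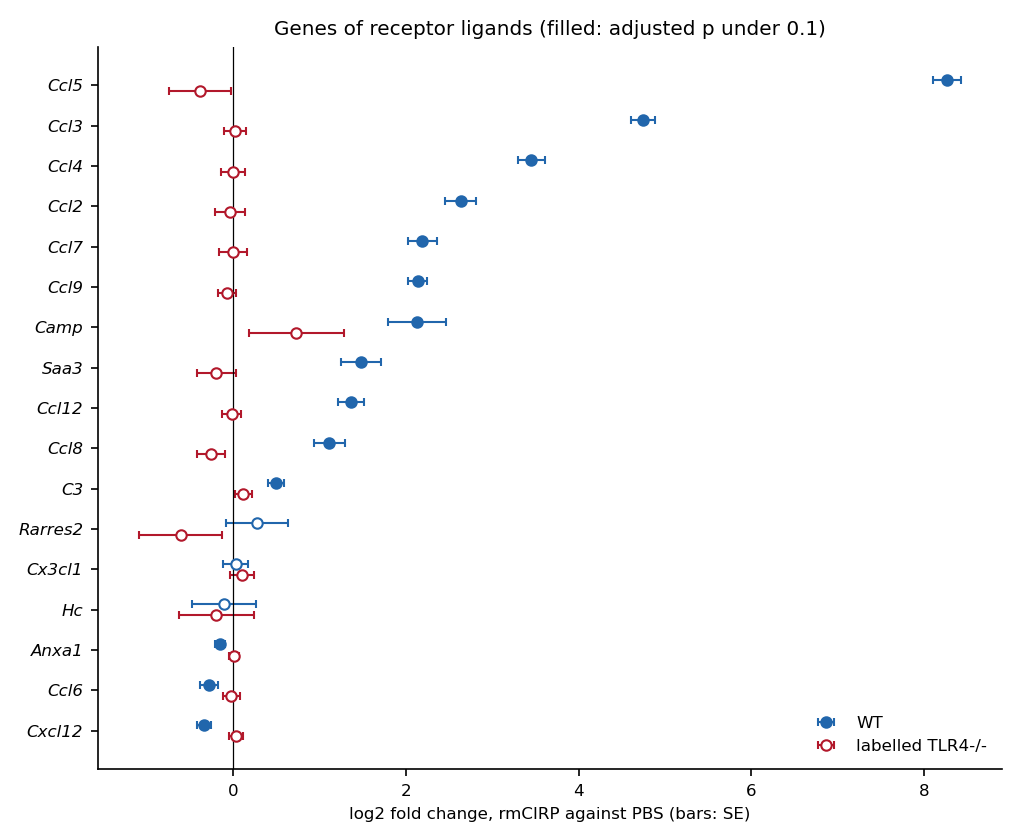
Log2 change with rmCIRP against PBS for the 17 ligands tested (horizontal axis, bars are the SE), in WT in blue and in libraries labelled TLR4-/- in red; filled points passed adjusted p under 0.1. Ccl5 lay at 8.26 in WT and 11 ligands were higher there, as were 19.8% of genes, while no filled red point is seen.

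Of 26 other receptors of these families 9 had enough reads to be tested. In WT 4 rose with rmCIRP and 2 fell, where 19.8% of genes rose and 24.1% fell. Xcr1, the receptor of lymphotactin, rose (log2 1.81, SE 0.33, adjusted p = 0.00014), as did Cmklr1, the signalling chemerin receptor, by less (log2 0.43, adjusted p = 0.00374). C5ar2, the second C5a receptor, was at 7.7, 8.99 and 16.7 with PBS and at 4.24, 0 and 1.98 with rmCIRP (adjusted p = 0.00107), and Cxcr3 at 1.92, 0 and 2.08 against 1.06, 11.3 and 8.89 (adjusted p = 0.0144, with overlap), both at very few reads. By edgeR 0 of the 9 passed with rmCIRP in the libraries labelled TLR4-/- (0 at an unadjusted p under 0.05 and 0 by DESeq2), where 0% of genes did. With PBS and at equal depth over all genes, C5ar2 was higher there by a log2 of 2.36 and Cmklr1 by 1.89, and the scavenging Cxcl12 receptor Ackr3 was lower (-0.89). The median log2 difference of the 17 macrophage markers was 2.20, and values scaled to them are not given for these receptors.

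All 27 genes listed for signalling below these receptors (G protein subunits, phospholipases, Rac and its exchange factors, arrestins, kinases and RGS proteins) were tested. With rmCIRP in WT, 7 rose and 11 fell, with a median log2 change of -0.06, where 19.8% of genes rose and 24.1% fell. Rgs16, which shortens Gi signals, went from 6131, 6030.2 and 5920.2 to 12719, 12968 and 12047 (log2 1.06, SE 0.10, adjusted p = 1.07e-08). Plcb2, the phospholipase of chemoattractant receptors in leukocytes, fell from 84.7, 67.9 and 97.8 to 16.98, 19.5 and 19.8 (log2 -2.15, SE 0.18, adjusted p = 1.78e-09), and Dock2, a Rac exchange factor of leukocytes, fell by 1.11 on the log2 scale (SE 0.10, adjusted p = 1.02e-08). Rgs18 was at 22.1, 17.97 and 30.2 with PBS and at 4.24, 2.06 and 2.96 with rmCIRP (adjusted p = 1.69e-05). By edgeR 0 of 27 passed with rmCIRP in the libraries labelled TLR4-/- (Gnb2, Rac1 and Rac2 at an unadjusted p under 0.05 and 1 by DESeq2, Rac1 with an edgeR log2 change of -0.083), where 0% of genes did. With PBS 21 were higher and 3 lower there than in WT, where 23.2% of genes were higher and 24% lower. The median log2 difference of the 27 was 0.97 at equal depth over all genes, beside 2.20 for the 17 macrophage markers. Values scaled to those markers are not given for the 27.

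The pattern of each receptor over the 8 condition means was set beside those of all genes with a mean normalized count of at least 50, as a description over 8 points that share libraries and depth. Fpr1 was most like Fpr2 (Pearson's r = 0.994), and Fpr2 most like Ccl3 (r = 0.997). Ccrl2 was most like Trim25 (r = 1.00) and Ifi203 (r = 0.997). Cx3cr1 was most like Gna15 (r = 0.999) and Irf8 (r = 0.998), C5ar1 like Lilrb4a (r = 0.999), C3ar1 like N4bp2l1 (r = 0.999) and Ccr1 like Cd200r4 (r = 0.997). Cxcr4 had the least close neighbours, with Ifi30 at r = 0.982. Among the receptors themselves the patterns fell into sets. Fpr1, Fpr2 and Ccrl2 were alike (r of 0.972 or more). C5ar1 and C3ar1 were alike (r = 0.992) and near to Cx3cr1 (r = 0.988 with C3ar1) and Ccr1 (r = 0.968 with C5ar1). C5ar1, C3ar1, Cx3cr1 and Ccr1 also had the largest genotype differences with PBS among the receptors at equal depth. Cxcr4 was at most at r = 0.676, with Ccr1.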

How the data were processed

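Total RNA was sequenced by the authors as 24 stranded libraries on a NextSeq 550. The deposited files hold raw read counts per gene from HTSeq, which the authors made from reads aligned with STAR. The submitters' processing notes name the build NCBIM37, and the strand setting of HTSeq is not given in the sources used here. Lines that name no gene held 14.5 to 16.1% of tallied reads and were left out. Depth was 29853346 to 39664606 reads on genes (median 33585047).

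Counts were fitted with edgeR 4.0.16 (R 4.3.3), by its quasi-likelihood test with TMM scaling and filterByExpr, on all 24 libraries with 1 mean per condition. Adjusted p-values are Benjamini-Hochberg over 16258 genes, with a threshold of 0.1 as in the study. Normalized counts were divided by DESeq2 1.42.0 size factors, and their SD is over 3 libraries. The common biological coefficient of variation was 0.0571. Exonic lengths came from GENCODE M21 and promoters from RefSeq GRCm38.p6. All 9 receptors are described by value. Other genes of a list are given by count, with values for those of largest change with rmCIRP in WT and for exceptions. The receptors, lists and motifs were chosen with earlier results of these data known. Alternatives were DESeq2, no filter, a mean count of 10, other scaling, a replicate block, fits on the compared libraries alone and leaving out each library. The scripts were tested on simulated counts. One of the other receptors is not reported here by name.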

Additional observations from a re-analysis of the deposited data

Results flagged for a closer look

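The response to rmCIRP differed between WT and the libraries labelled TLR4-/- for 5 receptors, by a test of that difference across all genes (edgeR, quasi-likelihood, with Benjamini-Hochberg adjustment). The log2 response was lower in the libraries labelled TLR4-/- by -1.60 for Fpr1 (SE 0.14, adjusted p = 2.53e-08), -2.41 for Fpr2 (SE 0.19, adjusted p = 2.25e-09) and -4.69 for Ccrl2 (SE 0.33, adjusted p = 4.50e-10). It was higher by 1.77 for Cx3cr1 (SE 0.38, adjusted p = 0.00159) and 0.65 for C3ar1 (SE 0.12, adjusted p = 0.000448). The 5 were called in each fit that left out 1 library, in which the count was 5 or 6, beside 4237 to 4934 genes. Genotype cannot be told apart from the difference in Xist and in macrophage markers between the same libraries. Single receptor values were not screened for a library far from its replicates, since that rule is not applied to groups of 3.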

How the results depend on the processing

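Of 1359 alternatives for 96 values of the receptors, 1219 kept direction and side of the threshold, 45 no longer passed, 42 newly passed and 53 changed sign. For the counts of receptors called, 147 of 170 stayed within 1.5 times. With both marker scalings the WT rmTGF-β1 count was 1, beside 1074 genes called of 16258, or 1780 without Lyz2. With no filter 34285 genes were tested. The counts were then 2 for both agents against rmCIRP in WT (beside 3136 genes called) and 8 for the genotype difference in rmCIRP response (4533 genes). For both agents against rmTGF-β1 in the libraries labelled TLR4-/- the count was 2 (1580 genes). For the genotype difference in rmTGF-β1 response (563 genes) and the WT interaction (198 genes) it was 2 each. With only the compared libraries the count was 3 for both against rmCIRP in WT, beside 4591 of 15018 genes. It was 3 for the same in TLR4-/-, beside 2710 of 15192 genes, and 1 for the interaction, beside 125 of 15646.

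Equal replicate numbers did not meet the rule for pairing libraries, by which every pair correlates above 0.1. Over 84 pairs of libraries with the same number the mean correlation of deviations was 0.012, with a range of -0.117 to 0.369, and 4 were over 0.1. Over 168 pairs with different numbers the mean was -0.006, the range -0.367 to 0.224, and 3 were over 0.1. With the replicate block the count was 2 for both agents against rmCIRP in WT, beside 3414 of 16258 genes. For both against rmTGF-β1 in TLR4-/- it was 1, beside 810 genes. Fpr1 in the genotype difference in rmTGF-β1 response changed sign to 0.0018.

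Signs changed for Ccr1 in WT rmTGF-β1 (0.00051 with no filter, 0.094 and 0.12 with the marker scalings). For the genotype difference with PBS they changed with the scaling to all markers and without Lyz2 for Fpr1 (-1.43, -1.70), Fpr2 (-1.37, -1.65), Ccr1 (-0.038, -0.32), Ccrl2 (-0.93, -1.20) and Cxcr4 (-1.07, -1.34), and without Lyz2 for C3ar1 (-0.25). The cause was not tested.

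Leaving out 1 library each gave counts of 1 to 4 for WT rmTGF-β1 (beside 1029 to 1690 genes called) and 1 to 2 for WT both against rmCIRP (2355 to 2780 genes). For TLR4-/- rmTGF-β1 the count was 3 to 6 (2517 to 3783 genes). It was 0 to 2 for TLR4-/- both against rmTGF-β1 (0 to 2674 genes) and 3 to 6 for TLR4-/- both against rmCIRP (3802 to 5985 genes). For the genotype difference in rmTGF-β1 response it was 0 to 1 (0 to 119 genes). Values that changed sign had the ranges below. Among them, Cxcr4 in TLR4-/- both against rmTGF-β1 and Cx3cr1 in TLR4-/- both against rmCIRP passed in some of these fits. In WT rmTGF-β1 Ccr1 ran from -0.094 to 0.051, and in WT both against rmTGF-β1 from -0.012 to 0.13. In WT both against rmCIRP, Fpr1 ran from -0.020 to 0.070, Fpr2 from -0.027 to 0.14 and Ccrl2 from -0.26 to 0.019. In TLR4-/- rmCIRP, Fpr1 ran from -0.11 to 0.057, Fpr2 from -0.27 to 0.0066, Ccr1 from -0.081 to 0.010 and Ccrl2 from -0.17 to 0.19. In TLR4-/- rmTGF-β1 Ccrl2 ran from -0.19 to 0.18. In TLR4-/- both against rmTGF-β1, Fpr1 ran from -0.15 to 0.0081, Fpr2 from -0.10 to 0.025, Cxcr4 from -0.18 to 0.42 and C3ar1 from -0.0089 to 0.19. In TLR4-/- both against rmCIRP, Cx3cr1 ran from -0.010 to 0.41 and C3ar1 from -0.16 to 0.044. In the genotype difference in rmTGF-β1 response, Fpr1 ran from -0.11 to 0.10, Fpr2 from -0.16 to 0.11, C5ar1 from -0.11 to 0.019 and C3ar1 from -0.027 to 0.10. In the WT interaction C5ar1 ran from -0.0098 to 0.13.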
